A study of Mus musculus with 6 samples.

Results

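Mediator is the multi-subunit complex that joins DNA-bound transcription factors to RNA polymerase II, and the chromatin of its genes is described here in mouse liver. The members were the 33 mouse genes for Mediator subunits, matched by gene symbol to an annotated table of accessible regions (peaks). The family was chosen by the measured change in reads at the promoter of Med16 between the groups compared below, so the values of that promoter are given as a description, without a test. Of the 33 genes, 25 had at least 1 peak, and together they had 41 of the 22412 peaks in the table. No peak carried the symbols Med8 or Med20 of the head module, Med9, Med19 or Med21 of the middle module, or Med25, Med28 or Med29 of the tail module. A gene without a peak in this table was not analysed here further.

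The assay was ATAC-seq: a transposase inserts sequencing adapters where the DNA of isolated nuclei is open. The control group was 3 liver samples labelled with an adenovirus (Ad) for EGFP, a green fluorescent protein that serves as a neutral cargo. The other group was 3 liver samples labelled with an adenovirus for Dyrk1b, a dual-specificity protein kinase, and its label is overexpression. Both groups thus carry an adenovirus, and the labels give neither strain, age, sex, dose nor time after infection. Whether the 3 replicates came from different mice is not stated, so each p-value reflects only the variation among the samples at hand, part or all of which may be technical. Whole liver also holds several cell types, and in bulk tissue fewer cells of a type cannot be told apart from less open chromatin per cell.

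Mediator has a core of head, middle and tail modules held together by the scaffold subunit Med14. The head and middle contact RNA polymerase II and the general transcription factors at the promoter, while the tail is the main landing site for activators. A separable kinase module, formed by Cdk8 or its paralog Cdk19 with cyclin C, Med12 and Med13 or their paralogs, binds the core reversibly and limits its contact with the polymerase. In liver the complex serves nuclear receptors and the factors that control lipid and glucose genes.

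The promoter sequence of Med16 is shown beside 1 promoter from each other module, so that their base composition and motifs can be read directly. Each sequence runs 5′ to 3′ on the coding strand from 250 bases before to 30 bases after the RefSeq start in the build GRCm38.p6, and capitals mark the motif matches described after them. The Med16 window is chr10:79908909-79909188 on the minus strand, Med17 is chr9:15279877-15280156 (minus), Med1 is chr11:98192877-98193156 (minus), Med14 is chrX:12761944-12762223 (minus) and Med12 is chrX:101273841-101274120 (plus).
Med16: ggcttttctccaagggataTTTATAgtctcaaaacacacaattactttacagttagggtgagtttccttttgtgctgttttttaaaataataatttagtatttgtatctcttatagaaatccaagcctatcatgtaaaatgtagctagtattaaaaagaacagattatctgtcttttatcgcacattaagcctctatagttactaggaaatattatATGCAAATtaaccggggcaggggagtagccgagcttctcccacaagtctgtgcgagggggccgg
Med17: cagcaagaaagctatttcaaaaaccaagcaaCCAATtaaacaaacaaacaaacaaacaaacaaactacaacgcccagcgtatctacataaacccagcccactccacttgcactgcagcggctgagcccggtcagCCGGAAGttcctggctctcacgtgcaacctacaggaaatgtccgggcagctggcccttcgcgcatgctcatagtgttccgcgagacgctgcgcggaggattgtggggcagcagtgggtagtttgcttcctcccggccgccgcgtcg
Med1: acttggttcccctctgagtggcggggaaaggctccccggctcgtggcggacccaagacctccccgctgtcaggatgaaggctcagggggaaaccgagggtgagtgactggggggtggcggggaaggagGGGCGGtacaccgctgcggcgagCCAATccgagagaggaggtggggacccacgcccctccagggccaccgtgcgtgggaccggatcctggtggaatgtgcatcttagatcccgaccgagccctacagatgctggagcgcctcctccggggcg
Med14: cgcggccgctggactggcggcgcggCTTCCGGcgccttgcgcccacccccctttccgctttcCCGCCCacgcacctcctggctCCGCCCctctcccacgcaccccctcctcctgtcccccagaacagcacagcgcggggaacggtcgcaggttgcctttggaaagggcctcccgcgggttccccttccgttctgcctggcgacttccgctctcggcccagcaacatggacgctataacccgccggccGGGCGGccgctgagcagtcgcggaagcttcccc
Med12: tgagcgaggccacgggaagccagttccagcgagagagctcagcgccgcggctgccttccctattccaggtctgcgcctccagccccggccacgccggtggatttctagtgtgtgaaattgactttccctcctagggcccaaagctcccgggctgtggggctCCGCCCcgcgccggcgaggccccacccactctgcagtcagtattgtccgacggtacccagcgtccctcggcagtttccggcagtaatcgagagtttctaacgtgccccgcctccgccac

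In the Med16 window, G and C made up 36.8% of bases and there were 5 CpG dinucleotides. This was the lowest GC content of the 32 RefSeq windows that matched 28 of the 33 members, and 5.95% of all 32851 RefSeq promoter windows were lower. The 20 windows of the other 17 matched members with a promoter peak had a median GC content of 59.1% and ranged from 46.8% to 78.9%. For all 6009 genes with a promoter peak and a window, the median was 60.7%. Over the same genes, the median log2 change (Dyrk1b minus control) was -0.06 in the fifth with the lowest GC content and between -0.10 and -0.01 in the others.

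Of 8 motifs searched on both strands, the Med16 window held 2. These were the octamer ATGCAAAT, 34 bases before the start, and TATAAA on the opposite strand, 231 bases before the start. The octamer was in 1.69% of all windows and TATAAA in 13.1%. The letters GGGCGG (GC box) were in 13 of the 21 windows of members with a promoter peak (61.9%), against 34.7% of all windows. CCGGAAG (ETS family site) was in 7 of those 21 (33.3%, against 8.45%) and CCAAT in 8 (38.1%, against 36.1%). The Med16 window held no match to these last 3 motifs. Among the sequences shown, Med17 holds CCAAT and CCGGAAG, Med1 holds GGGCGG and CCAAT, Med14 holds 3 copies of GGGCGG and 1 of CCGGAAG, and Med12 holds 1 GGGCGG. The YY1 core ATGGCGG was in 2 of the 21 windows (9.52%, against 3.1%), and TGACGTCA (cyclic AMP response element) and the palindromic NRF1 site were in 0, against 1.74% and 0.91%. The listed motifs do not overlap each other in the sequences shown, and a match is a description of letters only. The 21 windows come from 18 genes, so some genes enter with more than 1 window. Their median GC content was 58.2%, against 52.5% for all windows, which include genes without a promoter peak. The motif shares were not matched for GC content.

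Libraries held between 762633 and 1267934 reads in peaks, and a peak had a median of 26 to 47 reads per library, so single peaks of the members were measured with modest precision. The third Dyrk1b library was the deepest. Reads in peaks were a small share of the library totals implied by the authors' RPKM values. This share was lowest in the first Dyrk1b library (1.67%) and highest in the third (2.62%). At the Dyrk1b gene, the peak in exon 9 had 10, 1 and 3 reads in controls and 27, 30 and 53 reads with Dyrk1b. The peak in exon 11 had 9, 9 and 9 reads in controls and 33, 28 and 39 reads with Dyrk1b. Both went in the direction of the labels. Reads of the gene and of a virus that carries it cannot be told apart there. Across all peaks tested, edgeR's quasi-likelihood test called 7 of 22051 at an adjusted p under 0.05. Of 9 hepatocyte marker genes, 5 had a peak, and their summed level was 279 to 435 CPM (TMM-normalised counts scaled to the reads in peaks) in control and 313 to 336 CPM in Dyrk1b libraries, with no peak at Ttr, Serpina1a, Cps1 or Tat. Of their 7 peaks 6 had a negative log2 change, none was called, and the median was -0.25. Of 21 marker genes of other liver cells, 6 had a peak, 7 of their 9 peaks had a positive log2 change, none was called, and their summed level was 300.04 to 352.2 CPM in control and 351.7 to 400.3 CPM in Dyrk1b libraries. By type, endothelial markers had 110 to 121 CPM in control and 136 to 163 CPM in Dyrk1b libraries, and macrophage markers 164 to 206 and 162 to 185 CPM. The 1 stellate peak had 11.7 to 15.8 and 20.7 to 23.9 CPM, and the 1 lymphocyte peak 8.50 to 16.1 and 27.9 to 33.0 CPM. No peak was at the endothelial markers Kdr, Cdh5 and Lyve1, the macrophage markers Adgre1, Clec4f and Cd68 or the cholangiocyte markers Krt19, Sox9 and Epcam. The stellate markers Des, Pdgfrb and Reln and the lymphocyte markers Cd79a, Cd3e and Ptprc had none either. The part of cell makeup in the values that follow was not tested.

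The promoter of Med16 was less accessible in each Dyrk1b library than in each control library. Med16 is a tail subunit that receives signals from DNA-bound activators. Its promoter peak covered the start of the gene at bases 79744074 to 79745291 of chromosome 10 as deposited, in a build that the table does not name, and fell in the annotated 5′ UTR. It had 128, 134 and 107 reads in the control libraries and 69, 60 and 90 reads in the Dyrk1b libraries. After TMM normalisation these were 150.1, 163 and 144 CPM in controls and 91.6, 66.2 and 69.1 CPM with Dyrk1b. The highest Dyrk1b library thus stood well below the lowest control library. Group means were 152 ± 9.65 CPM (SD, n = 3) and 75.6 ± 13.9 CPM (SD, n = 3), a log2 change of -1.02 ± 0.21 (SE). In the authors' deposited table the same peak has a log2 ratio of -0.88 and an FDR of 0.299.

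**Figure D1:**
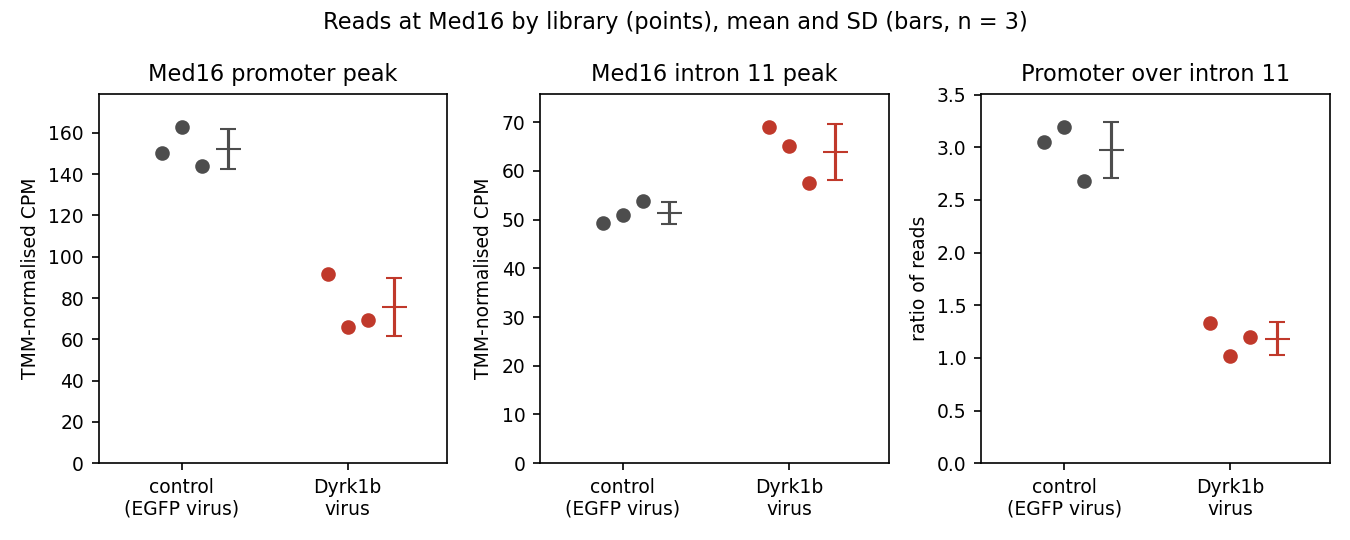
TMM-normalised CPM of the Med16 promoter peak (left) and intron 11 peak (middle), and the ratio of their reads (right), in each library (points) with the mean and SD of each group (bars, n = 3). Promoter points lie at 144 to 163 CPM in controls and 66.2 to 91.6 CPM in Dyrk1b libraries, while the intron points are at 49.2 to 53.8 CPM and 57.6 to 69.0 CPM.

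A second Med16 peak, in intron 11 of 14 (bases 79732860 to 79733509), had 42, 42 and 40 reads in controls and 52, 59 and 75 reads with Dyrk1b. On the normalised scale the means were 51.3 ± 2.28 CPM for controls and 63.9 ± 5.80 CPM for Dyrk1b (SD, n = 3 each). The groups did not overlap, but the log2 change of 0.31 ± 0.25 did not pass the test (adjusted p = 0.574). The ratio of promoter reads to intron reads, which does not depend on library scaling, was 3.05, 3.19 and 2.68 in the control libraries. It was 1.33, 1.02 and 1.20 in the Dyrk1b libraries. This ratio uses the promoter values that led to the choice of Med16 and is a description too.

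The surroundings of Med16 were measured by 28 further peaks within 300 kb of its promoter. Of these, 19 had a negative log2 change, with a median of -0.21, a range from -0.79 to 0.60 and no call (lowest adjusted p = 0.239). Over all peaks tested, 10926 of 22051 were negative. Among the 17 promoter peaks of that region, 13 had a negative value and the median was -0.35. Over all genes, with 1 promoter peak each, 4297 of 7500 were negative and the median was -0.07. The 17 peaks are not 1 per gene, since Midn, Cdc34 and Stk11 each had more than 1. The neighbouring genes in the RefSeq order are Cfd, the complement factor adipsin, and the small nuclear RNA gene Gm24019, followed by R3hdm4. The Med16 promoter peak reached 536 bases upstream of the start. Whether part of that peak, or of the motifs in the Med16 window, belongs to Gm24019 was not tested.

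Among all 41 member peaks, the Med16 promoter was the 1 peak called, in the lower direction, against 0.0317% of all peaks tested in either direction and 0.0227% lower. Since that contrast chose the family, nothing is read from this count. All 41 had passed the filter on low counts. With 1 library left out, 0 member peaks were called, except without the first Dyrk1b library, where the count was 1. The other peaks were therefore counted apart, without the Med16 promoter and without a Cdk8 intron peak of very high reads described last. None of these 39 was called. At an unadjusted p under 0.05 there were 7 of 39 (17.9%), 5 with a positive and 2 with a negative log2 change, against 14.2% of all peaks (6.44% higher and 7.72% lower). The groups did not overlap at 11 of 39 (28.2%), 7 higher and 4 lower with Dyrk1b, against 19.5% of all peaks (9.53% higher and 9.97% lower).

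The promoters of the tail module divided by sign. Med23, a tail subunit that takes up signals of growth factor and insulin pathways, had 68.0, 92.3 and 87.4 CPM in controls and 107, 95.9 and 63.7 CPM with Dyrk1b. These groups overlapped widely, and the log2 change was 0.09 ± 0.23 (adjusted p = 0.884). Without the first control library it was -0.040, and without the first Dyrk1b library -0.057. Per length the Med23 promoter was among the most accessible of the family, at 123 ± 19.1 CPM per kb in controls. The promoter of Med15, a tail subunit that binds the SREBP factors of lipid synthesis, had a log2 change of 0.05. Those of Med27 and Med30, which lie where the tail meets the head, had log2 changes of -0.46 ± 0.28 and -0.49 ± 0.40, with adjusted p = 0.449 and 0.572. Without Med16, the median over these 4 promoters was a log2 change of -0.20.

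The introns of tail genes held 2 peaks with an unadjusted p under 0.05, both with more reads in the Dyrk1b group on average. The peak in intron 8 of 16 of Med15 (chromosome 16, bases 17473965 to 17474756) had 34.0, 58.3 and 32.3 CPM in controls and 66.4, 56.2 and 71.4 CPM with Dyrk1b. The second control library lay above the second Dyrk1b library, and the log2 change was 0.64 ± 0.27 (adjusted p = 0.277). With 1 library left out it ranged from 0.50, without the third control library, to 0.97, without the second. The peak in intron 3 of 7 of Med27 at bases 29316725 to 29317189 of chromosome 2 had 27.0, 24.3 and 30.9 CPM in controls and 54.4, 47.4 and 31.5 CPM with Dyrk1b. The groups there did not overlap, though by a narrow gap, and the log2 change was 0.67 ± 0.32 (adjusted p = 0.331). Both further Med27 intron peaks were tested without a call, with log2 changes of -0.22 and 0.23. Med24, a tail subunit that partners Med16 and Med23, had a single peak, in intron 19 of 25, at a log2 change of -0.12 ± 0.32.

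In the head module, which contacts the polymerase, 3 of 5 promoter peaks had a negative log2 change and the median was -0.22. Med17, the central head subunit, had 89.1, 74.1 and 56.5 CPM at its promoter in controls (chromosome 9, bases 15190851 to 15191740). With Dyrk1b it had 54.4, 54.0 and 40.7 CPM. The highest Dyrk1b library lay just below the lowest control library. The means of 73.2 ± 16.3 and 49.7 ± 7.81 CPM (SD, n = 3) gave a log2 change of -0.58 ± 0.25 that did not pass the test (adjusted p = 0.293). Med11, which pairs with Med22 in the head, had 99.7, 113 and 167 CPM in controls against 96.9, 97.0 and 89.1 CPM with Dyrk1b, and a log2 change of -0.42 ± 0.21 (adjusted p = 0.364). Its groups did not overlap, with 1 control library far above the rest. Without that library, the third control, the log2 change was -0.17, and with loess normalisation -0.20. Per length, Med11 had the highest level of the member promoters, 146 ± 40.98 CPM per kb in controls, and over all 6 libraries it lay above 95.7% of all promoter peaks.

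Med18 lay at the other end of the same module. Med18 forms the movable jaw of the head with Med20. Its peak, 2200 bases into the gene in intron 2 of 2 and counted as a promoter peak since it is within 3 kb of the start, had 8, 10 and 10 reads in controls and 26, 17 and 31 reads with Dyrk1b. Normalised, these were 9.38, 12.1 and 13.4 CPM against 34.5, 18.7 and 23.8 CPM. The groups did not overlap, and the log2 change of 1.12 ± 0.48 was the most positive of the members but rested on few reads and did not pass the test (adjusted p = 0.288). Per length it was the lowest member promoter in controls, at 40.8 ± 7.26 CPM per kb. The promoters of Med6 and Med22, the other two measured head genes, had log2 changes of -0.22 ± 0.29 and 0.03 ± 0.24.

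In the middle module, 4 of 5 promoters had a negative log2 change, with a median of -0.25. Med1, the subunit through which nuclear receptors recruit Mediator, had 70.3, 85.0 and 73.9 CPM at its promoter in controls (chromosome 11, bases 98083638 to 98084346). With Dyrk1b it had 62.4, 47.4 and 51.4 CPM, below each control library. Means were 76.4 ± 7.65 and 53.7 ± 7.74 CPM (SD, n = 3), and the log2 change was -0.52 ± 0.24 (adjusted p = 0.320). Med4 was the exception in sign, with a log2 change of 0.27 ± 0.33 (adjusted p = 0.721). Its 25.8, 34.0 and 33.6 CPM in controls overlapped the 61.0, 26.5 and 28.4 CPM with Dyrk1b, and without the first Dyrk1b library the value was -0.17. The promoters of Med7, which forms a hinge of the complex, Med26, which connects Mediator to elongation factors, and Med31 had log2 changes of -0.25, -0.24 and -0.43. Med10 had a single peak, in intron 2 of 3 (chromosome 13, bases 69958360 to 69958856), with 38.7, 43.7 and 35.0 CPM in the control libraries and 23.9, 20.9 and 34.6 CPM in the Dyrk1b libraries. These groups did not overlap, by a gap under 1 CPM, and the log2 change was -0.54 ± 0.32 (adjusted p = 0.443).

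The scaffold gene Med14 had 51.6, 43.7 and 86.0 CPM at its promoter in controls and 62.4, 81.6 and 70.6 CPM with Dyrk1b. The control libraries spanned the Dyrk1b libraries, and the log2 change was 0.26 ± 0.25 (adjusted p = 0.646). It ranged from 0.071 without the second control library to 0.59 without the third. Its intron 11 peak was at -0.12.

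The plot of promoter changes sets these modules side by side.

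**Figure D2:**
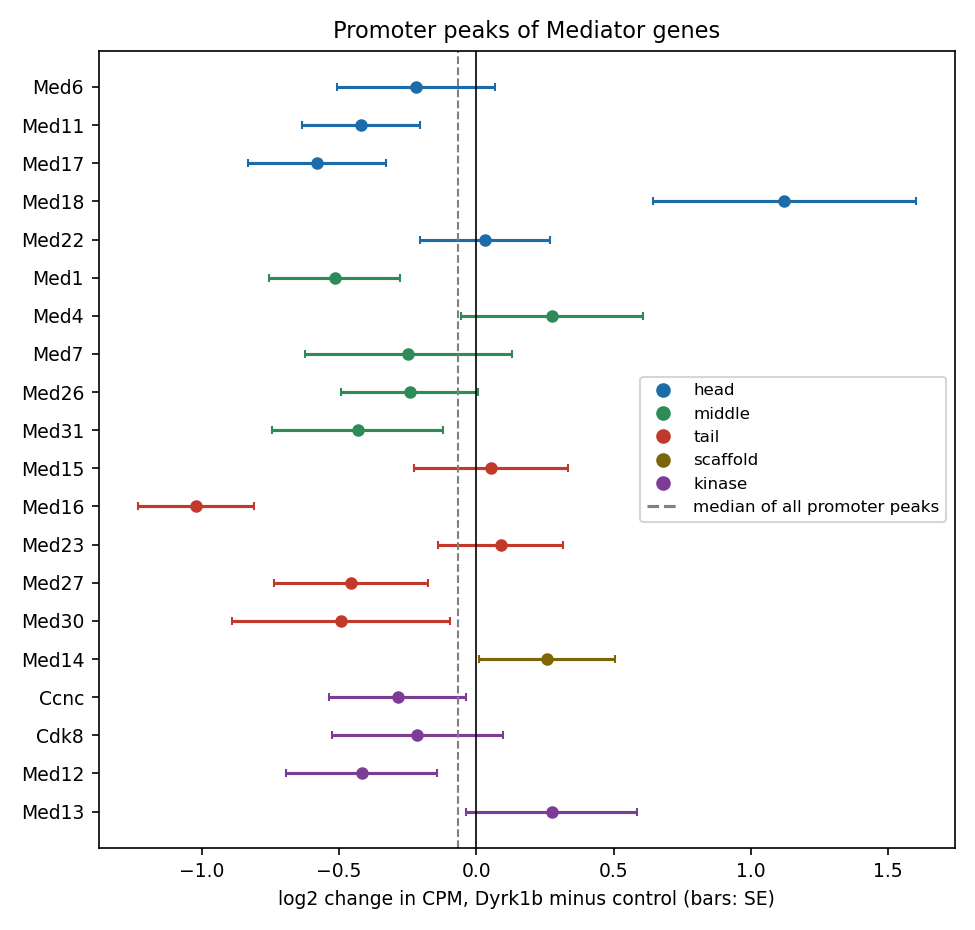
Log2 change in CPM (Dyrk1b minus control) with its SE at 1 promoter peak per Mediator gene, coloured by module, with the median of all promoter peaks (-0.07) as a dashed line. Med16 lies at -1.02, Med18 at 1.12, and the other 18 between -0.58 and 0.27.

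Over the 20 member promoters, 13 had a negative log2 change and the median was -0.25, beside -0.07 over 7500 promoter peaks of all genes. Without Med16 the median was -0.24, with 12 of 19 negative. Among all promoters 42.7% had a positive value, beside 7 of these 19 (36.8%). The groups did not overlap at 4 of the 19 promoters (21.1%), 1 higher and 3 lower with Dyrk1b, close to the 18.2% of all promoters (6.27% higher and 11.9% lower). In single libraries, the median of the centred log2 CPM of these 19 promoters was 0.14, 0.027 and 0.17 in controls and -0.13, 0.12 and -0.076 with Dyrk1b. The second Dyrk1b library thus lay above the second control library. Hepatocyte marker peaks had a median of the same size, -0.25 over 7 peaks, and its part in the promoter values was not tested. Levels of the family were close to those of other promoters: the median over 20 was 84.2 CPM per kb, beside 83.5 CPM per kb for all promoter peaks.

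Of the 15 peaks of the kinase module, 11 lay in introns outside promoters. Its 4 promoter peaks had a median log2 change of -0.25, or -0.026 without the first Dyrk1b library. Scaled by the library totals behind the RPKM values it was -0.051. That scaling also moved the median of all promoter peaks, from -0.07 to 0.10. Cyclin C (Ccnc), the cyclin of the module, was at -0.29 ± 0.25 and Cdk8, its kinase, at -0.21 ± 0.31. Med12, which activates the kinase, had 48.1, 70.5 and 57.8 CPM in controls and 22.6, 54.0 and 52.2 CPM with Dyrk1b. Its groups overlapped and its log2 change was -0.42 ± 0.28 (adjusted p = 0.484), or -0.14 without the first Dyrk1b library. Med13, which connects the kinase to the core, had 22.3, 36.4 and 40.3 CPM in controls and 41.1, 45.2 and 33.8 CPM with Dyrk1b. The overlap was again wide, at a log2 change of 0.27 ± 0.31 (adjusted p = 0.703), or 0.050 without the first control library.

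Med13l, the paralog of Med13, had 3 intron peaks and no promoter peak in the table, and in each of the 3 all Dyrk1b libraries lay above all control libraries. In intron 1 of 30 (chromosome 5, bases 118709412 to 118709952) there were 14, 19 and 13 reads in controls and 30, 47 and 37 reads with Dyrk1b. Normalised means were 19.0 ± 3.58 and 40.02 ± 11.7 CPM (SD, n = 3), and the log2 change was 1.05 ± 0.36 (adjusted p = 0.196). In intron 2 (bases 118801957 to 118802420), 22.3, 19.4 and 12.1 CPM stood against 33.2, 40.8 and 23.0 CPM, a log2 change of 0.82 ± 0.39 (adjusted p = 0.333). In intron 4 (bases 118832039 to 118832422), 27.0, 35.2 and 24.2 CPM stood against 38.5, 36.4 and 50.7 CPM, a log2 change of 0.55 ± 0.31 (adjusted p = 0.415). None of the 3 passed the test. They are parts of 1 gene in the same libraries and do not count as independent replicates.

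Med12l, the paralog of Med12, likewise had intron peaks alone. The peak in intron 12 of 15 had 15.2, 13.4 and 10.8 CPM in controls and 23.9, 20.9 and 20.7 CPM with Dyrk1b. Its groups did not overlap, and the log2 change was 0.72 ± 0.49 (adjusted p = 0.494) on 8 to 27 reads per library. The other two Med12l peaks were at 0.57 and 0.30, with overlapping groups. Cdk19, the paralog of Cdk8, had log2 changes of 0.13 and 0.74 in introns 1 and 2, and the second of these varied from 5 to 21 reads among controls.

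**Figure D3:**
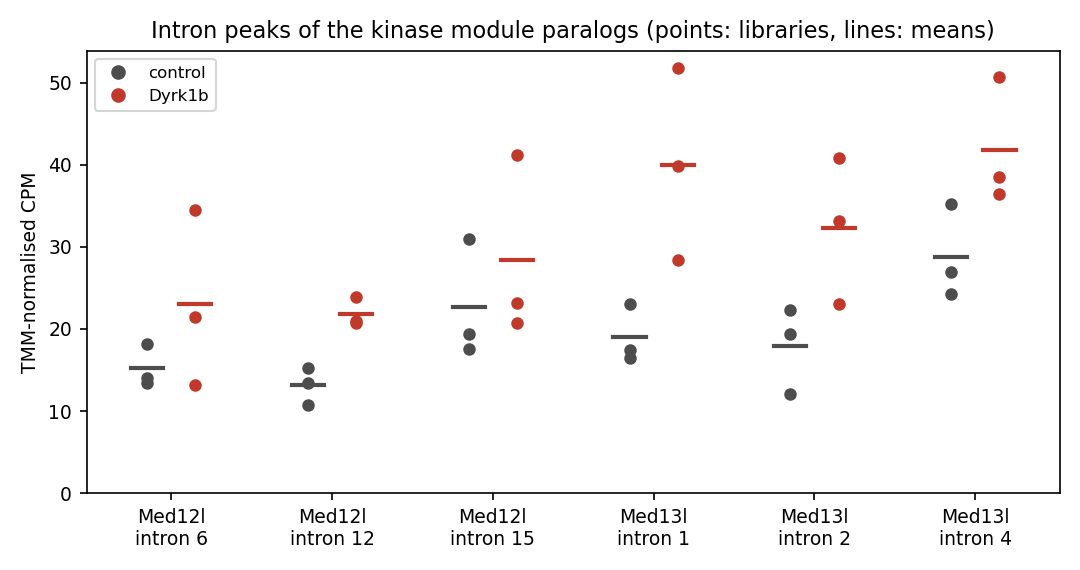
TMM-normalised CPM in each library (points) with group means (lines) at the intron peaks of Med12l and Med13l. In the 3 Med13l introns and in Med12l intron 12, every Dyrk1b point lies above every control point, with the widest step in Med13l intron 1 (means 19.0 and 40.02 CPM).

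Most intron peaks of the family had positive values. Of the 20 intron peaks outside promoters, without the strong Cdk8 peak, 15 had a positive log2 change and the median was 0.30. Over 10701 intron peaks of all genes, 56.3% were positive and the median was 0.08. At 7 of the 20 (35.0%), 6 of them higher with Dyrk1b, the groups did not overlap, against 20.3% of all intron peaks (11.8% higher and 8.51% lower). Those 6 include every Med13l intron peak, and several of the 20 share a gene, so they are not independent. The median centred log2 CPM of the 20 was -0.15, -0.11 and -0.18 in the control libraries and 0.27, 0.16 and 0.05 in the Dyrk1b libraries. Of the other 10 intron peaks of the kinase module, 9 were positive, with a median of 0.56, and the exception was Med13 intron 2 at -0.39. In the tail 6 of 8 were positive, with a median of 0.20.

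Read depth moved with these values. Among all intron peaks, the median log2 change was 0.28 where the mean was under 25 reads per library (67.0% positive). It was 0.06 from 25 to 40 reads (54.8%), -0.11 from 40 to 80 reads (37.5%) and -0.16 from 80 reads (19.5%). Member intron peaks in the first 3 classes had medians of 0.43 (7 of 8 positive), 0.06 (5 of 9) and 0.31 (3 of 3). The strong Cdk8 peak was the 1 member peak in the last class. The other 10 intron peaks of the kinase module had a median of 22.4 reads per library, in the class where positive values were common throughout the table. Marker peaks of other liver cells also had a positive median, 0.67 over 9 peaks. By type it was 0.56 over 4 endothelial and 0.16 over 3 macrophage peaks, with 1 stellate peak at 0.74 and 1 lymphocyte peak at 1.37. These last peaks had low levels, at 11.7 to 23.9 CPM (stellate) and 8.50 to 33.0 CPM (lymphocyte). Marker peaks were not sorted by read depth. The part of read depth or of cell makeup in the intron values was not tested.

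**Figure D4:**
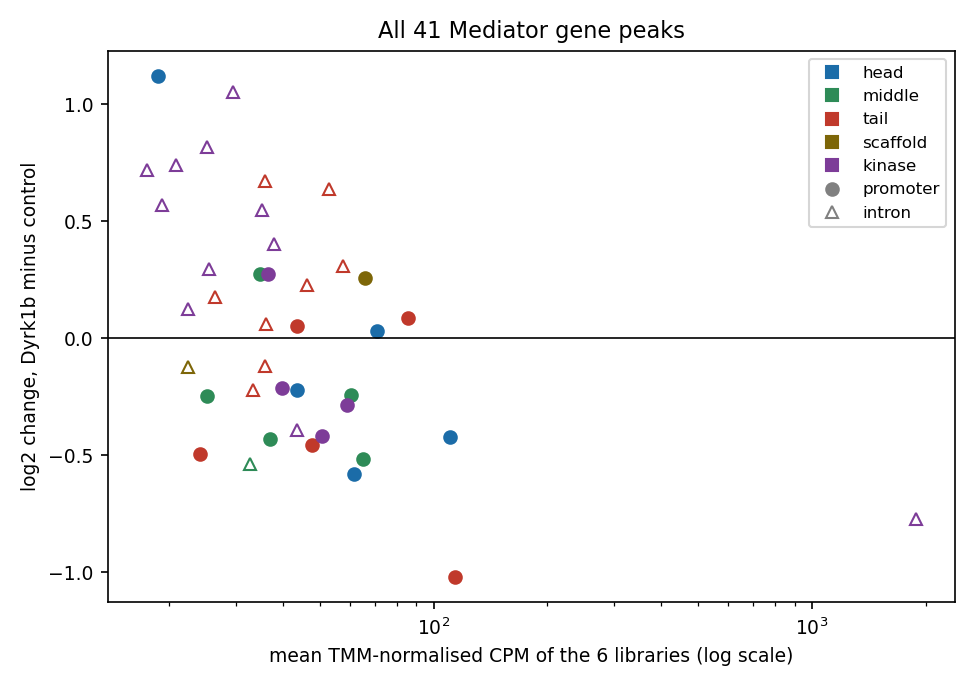
Log2 change (Dyrk1b minus control) of all 41 Mediator gene peaks against their mean TMM-normalised CPM over 6 libraries (log axis), coloured by module, with circles for promoter peaks and triangles for intron peaks. Apart from Med18 at 1.12, the promoter peaks lie at or below 0.27, the Med16 promoter is lowest at -1.02, and the strong Cdk8 intron peak stands alone at the right at -0.77.

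The peak in intron 2 of 11 of Cdk8 (chromosome 5, bases 146197693 to 146198263) stood apart by its size. It had 2402, 1606 and 1766 reads in controls and 1029, 1352 and 1717 reads with Dyrk1b, and by normalised level it ranked 3 of all peaks. On that scale its controls were at 2816, 1951 and 2374 CPM and its Dyrk1b libraries at 1366, 1491 and 1318 CPM. Each control library lay above each Dyrk1b library, although the raw reads of the third Dyrk1b library, the deepest, exceeded those of the second control library. The log2 change of -0.77 ± 0.30 did not pass the test (adjusted p = 0.255). Most intron peaks with a mean of 80 or more reads per library had the same sign. Over these 169 peaks, which include it, the median was -0.16 and 19.5% were positive. The peaks ranked 1 and 2 by level were at Gm10800 and Gm10801, and Sfi1 and Drg1 held several of the 20 highest. Whether reads at such peaks come from open chromatin was not tested.

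The other two Cdk8 peaks had ordinary levels. The Cdk8 promoter had 49, 37 and 20 reads in controls and 13, 40 and 62 reads with Dyrk1b. A peak in intron 4 had 30, 28 and 21 reads against 26, 52 and 49 reads, a log2 change of 0.40 ± 0.31 (adjusted p = 0.547). The strong peak therefore held 27.7 to 88.3 times the reads of the promoter of its own gene in the same library. It also held 57.4 to 84.1 times the reads of the intron 4 peak in controls and 26.0 to 39.6 times with Dyrk1b.

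**Figure D5:**
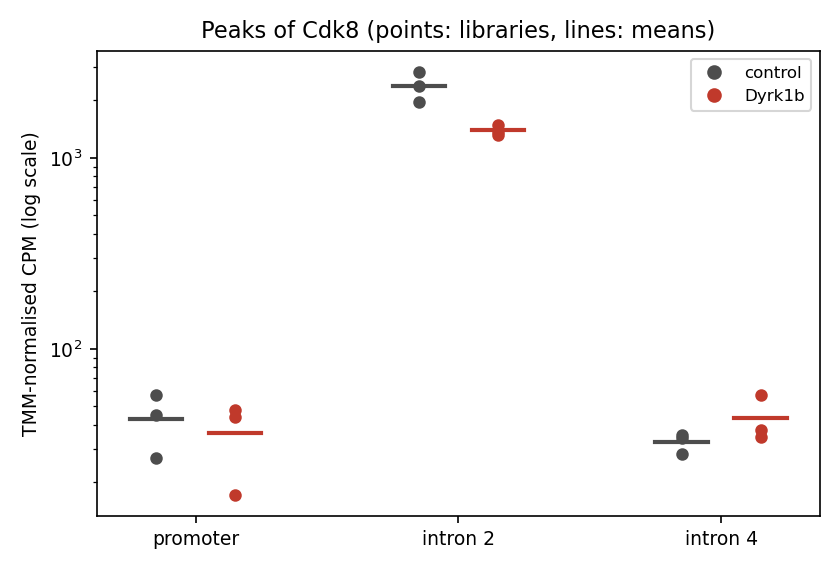
Normalised CPM (log axis) of the 3 Cdk8 peaks in each library. The intron 2 peak spans 1951 to 2816 CPM in controls and 1318 to 1491 CPM in Dyrk1b libraries, far above the promoter and intron 4 peaks, whose groups overlap.

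The genes with which Mediator works at promoters were examined on lists of RNA polymerase II subunits, general transcription factors, pausing and elongation factors, and cohesin. Of 74 such genes 59 had a peak, and none of their 93 tested peaks was called; at an unadjusted p under 0.05 there were 6 higher (6.45%) and 7 lower (7.53%), near the 6.44% and 7.72% of all peaks. Of 51 promoters, 31 had a negative log2 change and the median was -0.11, with list medians of -0.07 for polymerase subunits, -0.11 for general transcription factors, -0.05 for elongation factors and -0.20 for cohesin. Taf8, a subunit of TFIID, had the lowest adjusted p of these promoters (0.122), with 104, 71.7 and 80.7 CPM in controls and 37.2, 45.2 and 53.7 CPM with Dyrk1b; its log2 change was -0.89 ± 0.24.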

How the data were processed

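The authors deposited 1 table with, per the file headers, whole read counts per peak and library, RPKM values made from them, a log2 ratio of group means, a p-value and an FDR per peak, and the gene, class and distance to the gene start. The counts and the authors' log2 ratio were used. No count was below 1. Bowtie2, DiffBind and ChIPseeker, without versions, and the build mm10 come from the submitters' processing notes. Of 10418 gene names also annotated in GRCm38, 3.83% lay within 2 kb of their place there, so coordinates are printed as deposited. For the peak caller, duplicates, transposase shift and the authors' test, details were not given in the sources used here. Peak numbers run to 30387; peaks outside the table were not analysed here.

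Counts were fitted with edgeR 4.0.16 (R 4.3.3): filterByExpr kept 22051 peaks and removed 361, all 41 member peaks passed, and TMM and the quasi-likelihood test compared the 3 Dyrk1b with the 3 control libraries without a covariate. Calls had a Benjamini-Hochberg adjusted p under 0.05 over all peaks. Levels are TMM-scaled CPM of reads in peaks (1.67% to 2.62% of the totals that the RPKM values imply), per kb of peak between genes. The SE is the log2 change divided by the root of the F statistic. The biological coefficient of variation was 19.9%. A promoter peak had the authors' promoter class or lay within 3 kb of the start of its gene, and each gene entered with its promoter peak of highest mean. Alternatives were other normalisations, no filter, DESeq2 1.42.0, limma-trend (limma 3.58.1), the replicate block, each library left out, and other promoter and module definitions.

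The members, lists and tests were chosen with earlier results of these data known. Named peaks were every Med16 peak, the strong Cdk8 peak, the promoter with the lowest unadjusted p in each direction in each module, every member peak with an unadjusted p under 0.05 or with groups that did not overlap, and the highest and lowest promoter per length. Other members with values and Taf8 were named after their values were seen.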

Additional observations from a re-analysis of the deposited data

How the results depend on the processing

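The Med16 values here are a description, since they chose the family. Member peaks called numbered 1 with DESeq2 size factors, without the filter and with DESeq2, and 0 with library size only, with the library totals behind the RPKM values, with loess normalisation and with limma-trend. With each library left out in turn, 0 to 1 were called, the 1 being without the first Dyrk1b library; the Med16 log2 change was -1.16 to -0.94. Loess gave Med16 -0.82. The library totals moved the median of all peaks to 0.17 and that of all promoter peaks from -0.07 to 0.10. The same totals moved the member promoter median from -0.25 to -0.083 and the head median to -0.038. Leaving out libraries gave -0.33 to -0.16 for member promoters, -0.44 to -0.073 for the head, -0.44 to -0.092 for the middle, -0.59 to -0.16 for the tail, 0.071 to 0.59 for Med14 and -0.38 to -0.026 for the kinase module. With Med27 and Med30 in the head, the head median was -0.42 and the tail median 0.053. Of 252 alternative values of 18 named peaks, 3 changed sign: Med4 (-0.17 without the first Dyrk1b library, to 0.48) and Med23 (-0.040 without the first control and -0.057 without the first Dyrk1b library, to 0.31). With the replicate number as a block, the Med16 log2 change was -1.02, 1 member peak was called and the promoter median was -0.27. Deviations of same-numbered libraries correlated at -0.01, -0.01 and 0.01. Counting noise at few reads per peak weakens such a correlation, so it cannot show whether the numbers mark a pairing. Transcription machinery peaks called numbered 0 in each of these settings, but DESeq2 gave no adjusted p to 73 of the 93 and to 29 of the 41 member peaks. The causes were not tested. Few reads per peak limit single peaks, Med18 and Med12l most.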

Other observations

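Among the 20 peaks with the highest normalised level in the table, the strong Cdk8 intron peak was 1 of 2 with a log2 change beyond 0.31 in either direction. The other was an intron peak of Camk1d, a calcium-dependent kinase gene (chromosome 2, bases 5383935 to 5384294), which had 1122, 610 and 676 reads in controls and 450, 431 and 702 reads with Dyrk1b. Its log2 change was -0.88 ± 0.25 (adjusted p = 0.140) and that of Cdk8 was -0.77 ± 0.30. The other 18 ranged from -0.20 to 0.31. Both peaks had their highest reads in the first control library. In that library the strongest peak of the table, at Gm10800, had 15322 reads, against 29969 to 40760 in the other 5 libraries. Whether the reads of these 20 peaks, Camk1d and Cdk8 among them, come from open chromatin was not tested.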
